A study of Mus musculus with 7 samples.

Results

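Cd36, Fabp4, Gpihbp1, Lpl, Rbp7, Mgll, Cd300lg, Aqp1 and Pparg are genes through which the endothelium of the heart handles fatty acids and related small molecules. They were chosen by symbol, as 9 of the 32285 genes counted, and all 9 were found in the gene tables. The data are 10x Genomics 3' single-cell libraries of mouse hearts after myocardial infarction (MI) or a sham operation, and the labels set age, injury and genotype against each other. Hearts were perfused and digested, and the leukocytes (CD45+ cells) were enriched and put back in excess of the other cells, so endothelium was a minority of what was sequenced. The 7 libraries were WT P1 sham, WT P1 MI (2 libraries, named 1 and 2 after their labels), WT 8 week sham, WT 8 week MI, KO P1 sham and KO P1 MI. WT stands for C57BL6/J animals and KO for animals labelled MerTK KO, whose background strain the labels do not give. P1 is the age label of newborn animals. The labels give neither the time from surgery to harvest, nor the animals per library, nor the part of Mertk that was deleted. They give no separate origin of the pair of WT P1 MI libraries, so p-values speak only of how far these samples spread. That spread may be technical. Where the effects of age, injury and genotype are taken to add, it also holds any departure from adding.

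The heart takes most of its fuel as fatty acids, and these have to cross the capillary endothelium. Lipoprotein lipase is carried to the vessel lumen by GPIHBP1 and releases fatty acids from triglyceride-rich particles there, CD36 takes them up, and cytosolic carriers such as FABP4 move them through the cell. PPAR gamma, a nuclear receptor that fatty acids bind, is known to drive several of these genes in endothelium and fat.

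The deposited matrices held 44318 barcodes with 367475379 UMIs (tags that count each captured transcript once), and 36953 cells passed filters, of which 4617 were endothelial-like by their markers, called endothelium here. Endothelial cells numbered 243 in WT sham, 132 and 2027 in WT MI 1 and 2, 222 in KO sham and 171 in KO MI at P1, and 1799 in WT sham and 23 in WT MI at 8 weeks. WT 8 week MI therefore rests on 79592 endothelial UMIs against 1721934 to 22862016 elsewhere. Cdh5, the cadherin of endothelial junctions, was seen in 82.6% to 97.1% of these cells and the leukocyte gene Ptprc in 0% to 11.1%, highest in KO P1 MI. Summed neutrophil markers (12 genes) reached 4229 CPM (UMIs of a gene per 1000000 UMIs of the class in that library) in the endothelium of KO P1 MI against 10.2 to 268 elsewhere, with Elane and Mpo at 0 there. Summed erythroid markers (7 genes, Slc4a1 at 0) reached 6873 CPM in WT 8 week MI against 5.81 to 315 elsewhere, and macrophage markers (9 genes, 4 of them at 0) 490.0 against 11.4 to 98.7. Summed cardiomyocyte markers (9 genes) lay between 113 and 1486 CPM, highest in WT P1 sham. Adipocyte markers (6 genes) summed to at most 1.16 CPM, with Adipoq, the defining one, at 0 in 6 libraries. Xist and the Y-linked Ddx3y showed that sexes differed between libraries (Xist 0 CPM in the endothelium of both 8 week libraries and 235 to 1256 in the P1 libraries), so age and sex cannot be told apart. At P1 endothelial Ddx3y was 74.2 CPM in WT sham, 6.19 and 12.3 in WT MI 1 and 2, 0 in KO sham and 43.0 in KO MI. Sex thus also differed within the MI and genotype comparisons, and its part there was not tested. File headers gave Cell Ranger 6.1.0 for WT P1 MI 2 and WT 8 week sham and 4.0.0 for the others. No pair of libraries shared more than 41 cell barcodes, and 1 endothelial barcode was shared. Mertk was counted at 6.52 to 32.9 CPM in all 7 libraries, KO included, but a 3' tag whose place relative to the deletion is not given checks nothing.

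RefSeq start sites were available in the sequence tables for 5 members, and 3 of them had a single start. The 250 bases before it are shown for these 3 because their patterns differ in what follows: Cd36 was lowest in the KO libraries, Rbp7 highest in arterial cells and Aqp1 lowest there. Capitals mark matches on either strand to 5 motifs searched with no overlap between them: AGGTCA, the half-site of nuclear receptors such as PPAR gamma; AGATAA, the GATA factor motif; TATAAA, the box of that name; GGGCGG, the Sp1 core; and CCGGAA, an ETS core.
Cd36: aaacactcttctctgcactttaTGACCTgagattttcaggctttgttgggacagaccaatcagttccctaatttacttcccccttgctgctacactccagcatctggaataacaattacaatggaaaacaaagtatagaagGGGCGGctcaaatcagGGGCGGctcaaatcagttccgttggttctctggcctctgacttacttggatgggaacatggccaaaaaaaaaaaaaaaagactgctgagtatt
Rbp7: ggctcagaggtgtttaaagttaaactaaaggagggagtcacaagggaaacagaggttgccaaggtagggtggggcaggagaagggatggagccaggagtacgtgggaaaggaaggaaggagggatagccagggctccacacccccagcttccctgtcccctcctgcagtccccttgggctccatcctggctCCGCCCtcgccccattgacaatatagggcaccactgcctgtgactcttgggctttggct
Aqp1: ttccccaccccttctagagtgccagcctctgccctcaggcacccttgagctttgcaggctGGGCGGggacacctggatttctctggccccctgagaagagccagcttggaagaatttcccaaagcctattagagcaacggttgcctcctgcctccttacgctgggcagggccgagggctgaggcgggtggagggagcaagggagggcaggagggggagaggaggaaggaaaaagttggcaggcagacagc
These are RefSeq sequences on GRCm38.p6, written 5′ to 3′ on the strand of the gene: chr5:17835897-17836146 (minus strand) for Cd36, chr4:149454969-149455218 (minus strand) for Rbp7 and chr6:55336049-55336298 (plus strand) for Aqp1. The Cd36 window lies within the annotated gene, which begins farther upstream, so other transcripts start elsewhere. It holds 1 AGGTCA match, written as its reverse complement, and 2 GGGCGG matches, and its GC content is 43.2%. The Rbp7 and Aqp1 windows hold 1 GGGCGG match each, on opposite strands, with GC contents of 58.4% and 62.0% against a median of 52.4% over all 32851 windows. AGGTCA occurs in 14.0% of all windows of this length, AGATAA in 9.99%, TATAAA in 12.4%, GGGCGG in 32.7% and CCGGAA in 12.0%. A match is a description of letters and not a binding site.

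Lpl, lipoprotein lipase (ENSMUSG00000015568; GRCm38 chromosome 8, 68880491 to 68907448, plus strand), splits triglycerides of circulating lipoproteins. Its endothelial level was 289 CPM in WT sham, 265.5 and 188 in WT MI 1 and 2, 254 in KO sham and 119 in KO MI at P1, and 749.8 in WT sham and 214 in WT MI at 8 weeks. WT 8 week sham stood apart, and no other library came near it. The 8 week to P1 ratio of the sham libraries was 2.60, with an exact 95% interval of 2.44 to 2.76. All intervals here cover counting error only, and with 1 library on each side such a ratio has no replicate check. Within 8 weeks the MI library held 0.285 (0.166 to 0.457) of the sham level, from 17 UMIs, and at P1 both WT MI libraries lay below sham.

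Gpihbp1 (ENSMUSG00000022579; chromosome 15, 75596628 to 75599481, plus strand) encodes the protein that carries lipoprotein lipase across capillary endothelium and holds it at the lumen. It was counted at 1461 CPM in WT sham, 1410 and 1489 in WT MI 1 and 2, 1372 in KO sham and 936 in KO MI at P1, and 2542 in WT sham and 2035 in WT MI at 8 weeks. Both 8 week libraries were above all 5 P1 libraries, which lay close together except for the low KO P1 MI. The sham ratio of 8 weeks to P1 was 1.74 (1.69 to 1.79), smaller than that of the enzyme it carries.

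Cd36 (ENSMUSG00000002944; chromosome 5, 17781690 to 17888801, minus strand) encodes the fatty acid translocase of the cell surface. In order, its level was 1661 CPM in WT sham, 1671 and 1206 in WT MI 1 and 2, 796 in KO sham and 596 in KO MI at P1, and 2847 in WT sham and 1960 in WT MI at 8 weeks. Libraries of the 3 kinds did not overlap: both 8 week libraries were highest and both KO libraries lowest. The sham ratio was 1.71 (1.67 to 1.76) for 8 weeks over P1 and 0.479 (0.457 to 0.502) for KO over WT at P1.

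Fabp4 (ENSMUSG00000062515; chromosome 3, 10204088 to 10208576, minus strand) encodes a cytosolic carrier of fatty acids that is also abundant in fat cells. It made up 18490 CPM in WT sham, 18010 and 22700 in WT MI 1 and 2, 13480 in KO sham and 11010 in KO MI at P1, and 25430 in WT sham and 7300 in WT MI at 8 weeks. The WT P1 libraries and WT 8 week sham were high, both KO libraries lower, and WT 8 week MI lowest of all. Its sham ratio of 8 weeks to P1 was 1.38 (1.36 to 1.39), and the 8 week MI library held 0.287 (0.264 to 0.311) of the 8 week sham level.

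Cd300lg (ENSMUSG00000017309; chromosome 11, 102041509 to 102055620, plus strand) encodes a surface glycoprotein of capillary endothelium. It measured 277 CPM in WT sham, 308 and 203 in WT MI 1 and 2, 230 in KO sham and 186 in KO MI at P1, and 683 in WT sham and 138 in WT MI at 8 weeks. As for Lpl, WT 8 week sham alone stood high, at 2.47 times the P1 sham level (2.32 to 2.63), while the 8 week MI library was the lowest, from 11 UMIs.

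Mgll (ENSMUSG00000033174; chromosome 6, 88724412 to 88828360, plus strand), monoacylglycerol lipase, frees the last fatty acid of a glyceride inside the cell. Levels were 1143 CPM in WT sham, 1138 and 744 in WT MI 1 and 2, 1011 in KO sham and 636 in KO MI at P1, and 1521 in WT sham and 314 in WT MI at 8 weeks. The sham ratio of 1.33 (1.29 to 1.38) was the smallest of the 9 members, and within 8 weeks the MI library held 0.206 (0.134 to 0.305) of sham.

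Rbp7 (ENSMUSG00000028996; chromosome 4, 149449687 to 149454978, minus strand), a cellular retinol-binding protein of the same lipid-carrier family as Fabp4, went its own way. It stood at 409.5 CPM in WT sham, 468 and 620.2 in WT MI 1 and 2, 559.9 in KO sham and 616 in KO MI at P1, and 665 in WT sham and 628 in WT MI at 8 weeks. WT P1 sham was the lowest library, and the interval of the highest, WT 8 week sham, overlapped that of WT 8 week MI. Its sham ratio was 1.62 (1.54 to 1.72) for 8 weeks over P1, and at 1.37 (1.28 to 1.46) it was the single member above 1 for KO over WT sham.

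Aqp1 (ENSMUSG00000004655; chromosome 6, 55336432 to 55348555, plus strand), the water channel of microvessels, had the largest sham ratio of the 9, at 2.83 (2.70 to 2.96). Its level was 470.2 CPM in WT sham, 366 and 232 in WT MI 1 and 2, 335 in KO sham and 217 in KO MI at P1, and 1329 in WT sham and 503 in WT MI at 8 weeks. WT 8 week sham was far above the rest, and in each of the 3 settings (WT P1, WT 8 weeks, KO P1) the MI libraries lay below their sham library.

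Pparg (ENSMUSG00000000440; chromosome 6, 115360951 to 115490399, plus strand), the nuclear receptor PPAR gamma, had the fewest UMIs of the 9. It reached 46.9 CPM in WT sham, 38.9 and 36.8 in WT MI 1 and 2, 22.5 in KO sham and 21.5 in KO MI at P1, and 88.9 in WT sham and 12.6 in WT MI at 8 weeks. WT 8 week MI had 1 Pparg UMI, so its level is known only to lie between 0.318 and 70.0 CPM. The sham ratios were 1.90 (1.62 to 2.23) for 8 weeks over P1 and 0.48 (0.357 to 0.637) for KO over WT.

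**Figure D1:**
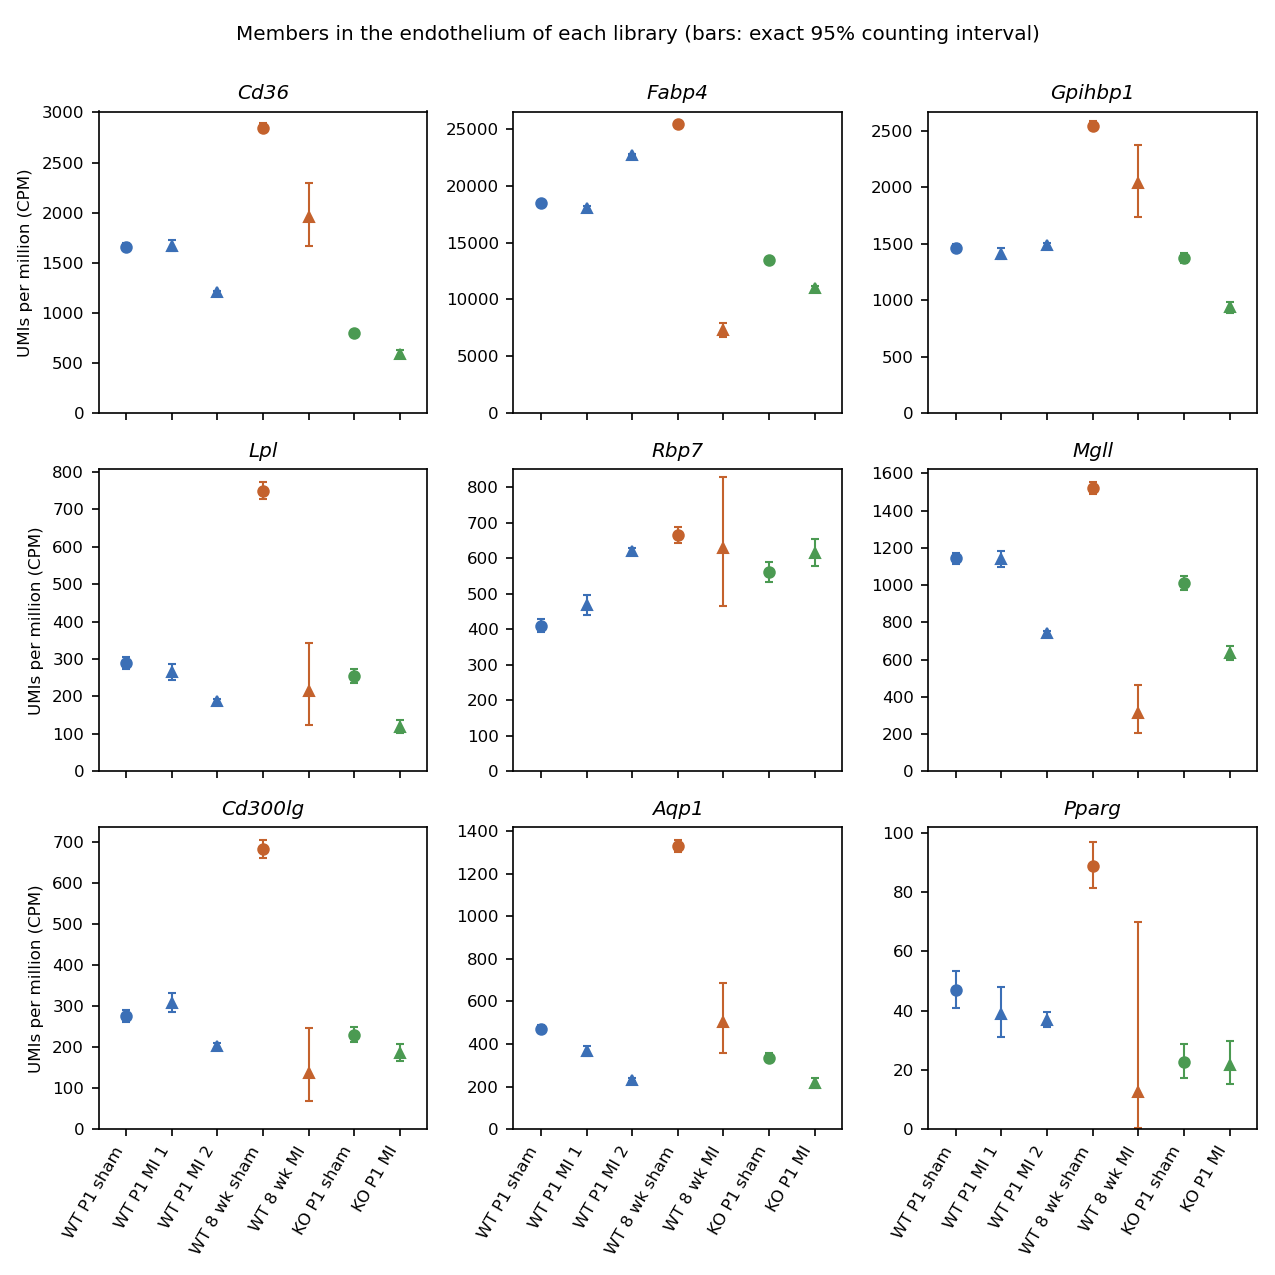
Endothelial level of each of the 9 members in the 7 libraries, in CPM on a linear axis from 0, with exact 95% intervals for counting error as bars. Circles are sham and triangles MI libraries, coloured by age and genotype. WT 8 week sham is the highest point in all 9 panels, and the wide bars are those of WT 8 week MI with its 23 endothelial cells.

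The endothelial level of all 9 members was highest in WT 8 week sham, as it was for 18.7% of the 11918 genes tested. For 8 of the 9 the interval was clear of the second library, Rbp7 being the exception, a count that was not made over all genes. Both 8 week libraries were above all P1 libraries for 4 members, Cd36, Gpihbp1, Rbp7 and Aqp1 (10.8% of all genes). Both KO libraries were below every WT P1 library for 4, Cd36, Fabp4, Gpihbp1 and Pparg (12.9% of all genes). At P1 both WT MI libraries were below WT sham for 4, Lpl, Mgll, Aqp1 and Pparg (29.3% of all genes). The median sham ratio of 8 weeks to P1 was 1.74 over the members and 1.02 over all genes.

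The share of endothelial cells with a UMI of a member followed depth as well as level, since the median endothelial cell held 11464 UMIs in WT P1 sham and 2429 in WT 8 week sham. Every cell was therefore thinned to 1500 UMIs, which left out 6 to 312 cells per library. Lpl was then found in 34.4% of cells in WT sham, 25.8% and 22.7% in WT MI 1 and 2, 26.1% in KO sham and 14.8% in KO MI at P1, and 57.4% in WT sham and 35.3% in WT MI at 8 weeks. Without thinning the shares were 77.0% in WT sham and 42.1% to 70.4% in the other P1 libraries, 72.0% in WT sham and 34.8% in WT MI at 8 weeks. The share in WT 8 week sham was thus above that in WT P1 sham after thinning and below it before, while WT 8 week MI, with 17 thinned cells, was close to WT P1 sham after thinning. Cd300lg followed the same order of sham libraries, with 30.0% in WT P1 sham and 61.5% in WT 8 week sham after thinning against 81.1% and 76.7% before it.

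Fabp4 was near saturation, in 92.9% to 97.7% of thinned endothelial cells of 6 libraries and 79.6% in KO P1 MI (83.6% to 98.8% of unthinned cells over all 7). Thinned Cd36 was found in 82.2% of cells in WT sham, 77.4% and 72.2% in WT MI 1 and 2, 62.6% in KO sham and 42.6% in KO MI at P1, and 91.1% in WT sham and 82.4% in WT MI at 8 weeks (62.0% to 95.8% unthinned). The KO libraries were lowest, as in the summed level. Gpihbp1 ranged from 53.7% to 88.4% of thinned cells (64.9% to 92.3% unthinned), Mgll from 41.2% to 80.3% (63.2% to 89.5%) and Aqp1 from 28.0% to 57.0% (52.2% to 77.4%), each highest in WT 8 week sham after thinning. Rbp7 was in 26.5% to 40.8% of thinned cells (43.9% to 64.4% unthinned), and Pparg in 1.42% to 13.5% (4.35% to 42.4%), close to the level of single UMIs. In T cells, taken as a gauge of free RNA, thinned shares reached 7.22% for Fabp4, 4.12% for Gpihbp1, 2.06% for Mgll and 1.61% for Cd36. Whether T cells make any of these genes themselves was not tested. They reached 0.712% for Lpl, 1.29% for Pparg, 0.297% for Rbp7, 1.03% for Cd300lg and 1.08% for Aqp1, at median depths before thinning of 2614 to 7706 UMIs against 2737 to 12050 in endothelium. Pparg in KO P1 sham was in 1.42% of endothelial and 1.29% of T cells, so this measure does not set the classes apart there. Its summed endothelial level in that library rests on 63 UMIs before thinning.

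Members were counted together in single cells. After thinning, an endothelial cell held UMIs of 4.75 members on average in WT sham, 4.63 and 4.22 in WT MI 1 and 2, 4.29 in KO sham and 3.25 in KO MI at P1, and 5.88 in WT sham and 4.59 in WT MI at 8 weeks. At least 4 members were seen in 90.9% of the cells of WT 8 week sham and 45.7% of those of KO P1 MI, with the others between 64.7% and 82.6%. KO P1 MI also had most cells with none, 11.1% against 0% to 3.79%. Its endothelium is the one that carries the neutrophil markers, and their part in these shares was not tested.

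Outside the endothelium the members divided sharply. Over libraries with at least 30 cells of a class, median Gpihbp1 was 1436 CPM in endothelium, 517 in the lymphatic endothelium of 1 library and at most 34.5 in any other class. Rbp7 and Cd300lg were like it, at 588 and 253 CPM in endothelium and at most 22.5 and 12.9 outside endothelium and lymphatic endothelium. Cd36 was at 1433 CPM in endothelium, 230.4 in monocytes, 177 in mural cells and 136 in macrophages, whereas fibroblasts held 2.41. Aqp1 was as high in epicardial cells (380.0 CPM, 3 libraries, 19.7 to 531) as in endothelium (351), and Pparg as high in monocytes (42.7 CPM, 4 libraries) as in endothelium (37.8). The clusters named monocytes were led by Ear2 and Adgre4. A cluster of 2729 cells with Marco, Plac8 and Ccr2 among its leading genes, 1712 of them from KO P1 MI, stayed unnamed. It enters neither the monocytes nor the macrophages here.

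Lpl was the member least tied to endothelium. Fibroblast Lpl was 541 CPM in WT sham, 554 and 374 in WT MI 1 and 2, 542 in KO sham and 368 in KO MI at P1, and 353 in WT sham and 109 in WT MI at 8 weeks. It was thus above endothelial Lpl in all 5 P1 libraries and below it in both 8 week libraries, from 17 endothelial UMIs in WT 8 week MI. Macrophage Lpl was 138 to 321 CPM in the P1 libraries, 122 in the 8 week sham and 179.9 in the 8 week MI library. From P1 to 8 week sham, Lpl was at 0.653 (0.625 to 0.681) of its level in fibroblasts and 0.627 (0.567 to 0.693) in macrophages, where in endothelium it was at 2.60. Over all 7 libraries the log2 age estimate of Lpl was 0.51 ± 0.41 (SE) in endothelium and −1.30 ± 0.45 in fibroblasts, neither called by edgeR. The difference between endothelium and fibroblasts in the age effect of Lpl, tested with the library as a block, was 1.61 ± 0.24 on the log2 scale (SE; edgeR, Benjamini-Hochberg adjusted p = 5.03e-05). The same fit called 4 of the 9 members for age and 6.19% of 14251 genes in either direction, and against macrophages the difference for Lpl was 0.65 ± 0.49 (adjusted p = 0.640) where 1 member, Fabp4, and 1.86% of 12811 genes were called. For MI the endothelium differed from fibroblasts in 2 members, Fabp4 and Aqp1 (1.26% of genes), and for genotype in the same 2 (2.46% of genes), terms taken up after the data were seen. Against macrophages 0 members differed for MI by edgeR (0.0234% of genes called) and 0 for genotype (0.422% of genes called). At an unadjusted p under 0.05 there were 2 members and 588 of 12811 genes for MI. For genotype there were 1 member and 729 genes. Fibroblast Fabp4 lay between 11.4 and 169 CPM and fibroblast Aqp1 between 3.79 and 98.2 CPM, so these differences set endothelial changes beside low levels.

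**Figure D2:**
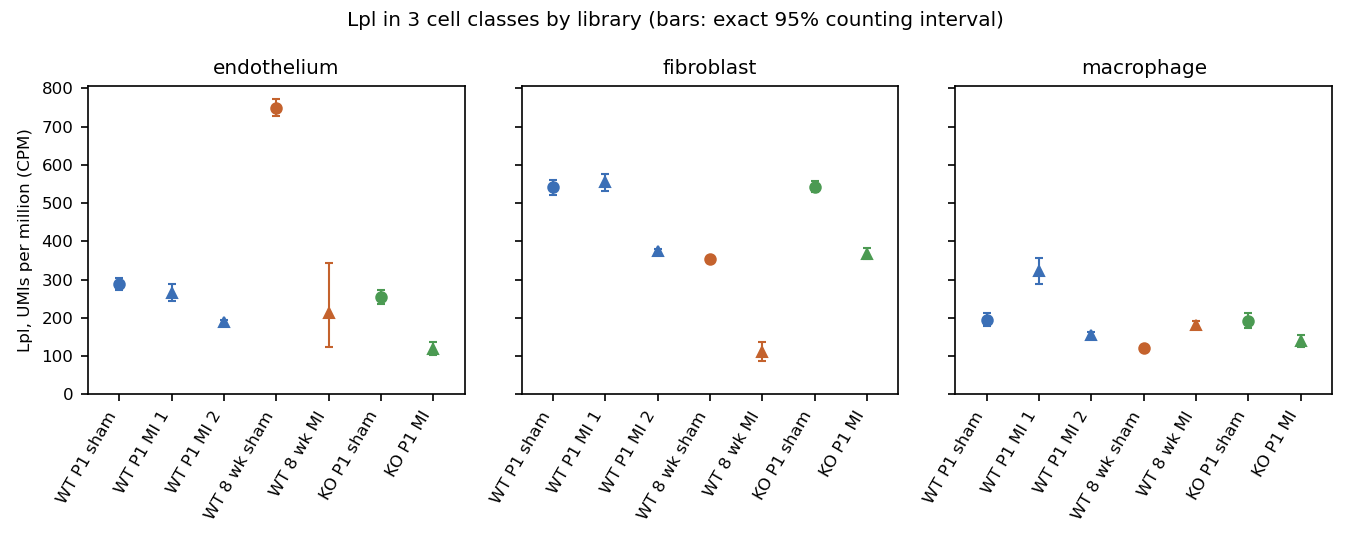
Lpl in CPM (linear axis from 0) in endothelium, fibroblasts and macrophages of the 7 libraries, with exact 95% counting intervals as bars. Endothelial Lpl is at 749.8 CPM in WT 8 week sham and at most 289 in the others, while fibroblast Lpl is at 368 to 554 in the P1 libraries and lower at 8 weeks.

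**Figure D3:**
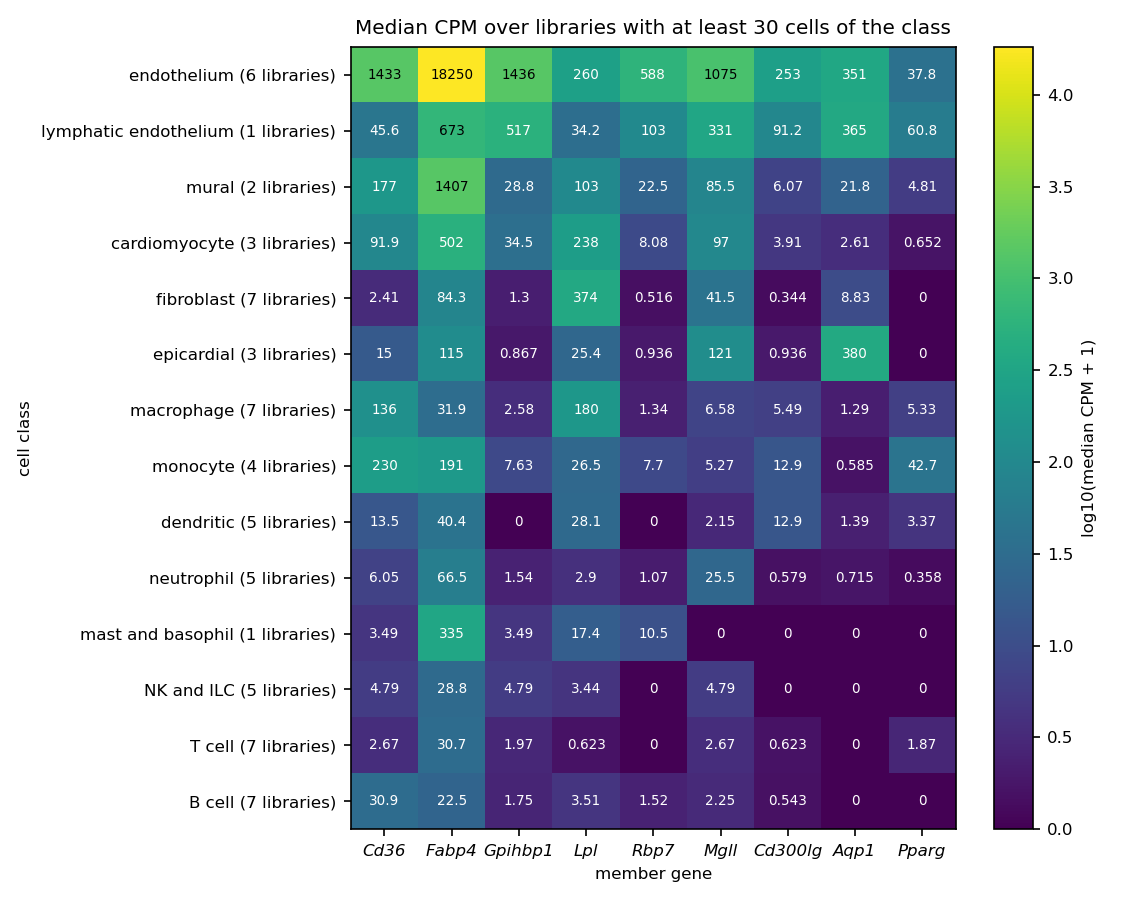
Median level of the 9 members in each cell class, over the libraries with at least 30 cells of that class (their number is in brackets), printed in CPM and coloured by log10 of the median plus 1. Gpihbp1, Rbp7 and Cd300lg are high in endothelium alone among the blood and stromal classes, whereas Lpl is at 374 in fibroblasts, Aqp1 at 380.0 in epicardial cells and Pparg at 42.7 in monocytes.

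Within the endothelium the members marked different vessels. Sub-clusters were named from marker lists that hold no member and were made without the members, and WT P1 MI 2 and WT 8 week sham had enough cells of each type (136 and 248 arterial, 52 and 137 venous, 273 and 67 endocardial, 1365 and 1306 capillary). Rbp7 was arterial, at 1822 CPM in arterial cells of WT P1 MI 2 and 1903 in those of WT 8 week sham, against 634 and 591 in capillary, 159 and 182 in venous and 67.8 and 3.07 in endocardial cells. Mgll had the same order, with 1408 and 2402 CPM in arterial, 822 and 1639 in capillary, 464 and 838 in venous and 74.4 and 169 in endocardial cells. Aqp1 was low in arterial cells (90.6 and 90.8 CPM) and in endocardial cells (134 and 233), and higher in capillary (258 and 1668) and venous cells (541 and 1492). Arterial cells were thus the one type in which Aqp1 did not differ between these libraries beyond counting error.

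Fabp4 was high in every vessel type and lowest in the endocardium, the inner lining of the heart chambers, at 4247 and 3069 CPM against 16250 to 28950 in the other types. Gpihbp1 was highest in capillary cells (1830 and 3182 CPM), with 71.6 and 67.6 in endocardial cells. Lpl was 231 and 931 CPM in capillary cells, 60.4 and 552 in arterial, 146 and 438 in venous and 36.2 and 70.7 in endocardial cells. In all 4 types it was higher in WT 8 week sham than in WT P1 MI 2. Against WT P1 sham, endocardial Lpl was lower at 8 weeks, at 0.557 (0.331 to 0.909) of 126.8 CPM, from 20 endocardial cells. Pparg was 41.6 and 106 CPM in capillary and 59.7 and 120 in arterial cells, 27.7 and 18.7 in venous cells, and 1.72 and 0 in endocardial cells.

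**Figure D4:**
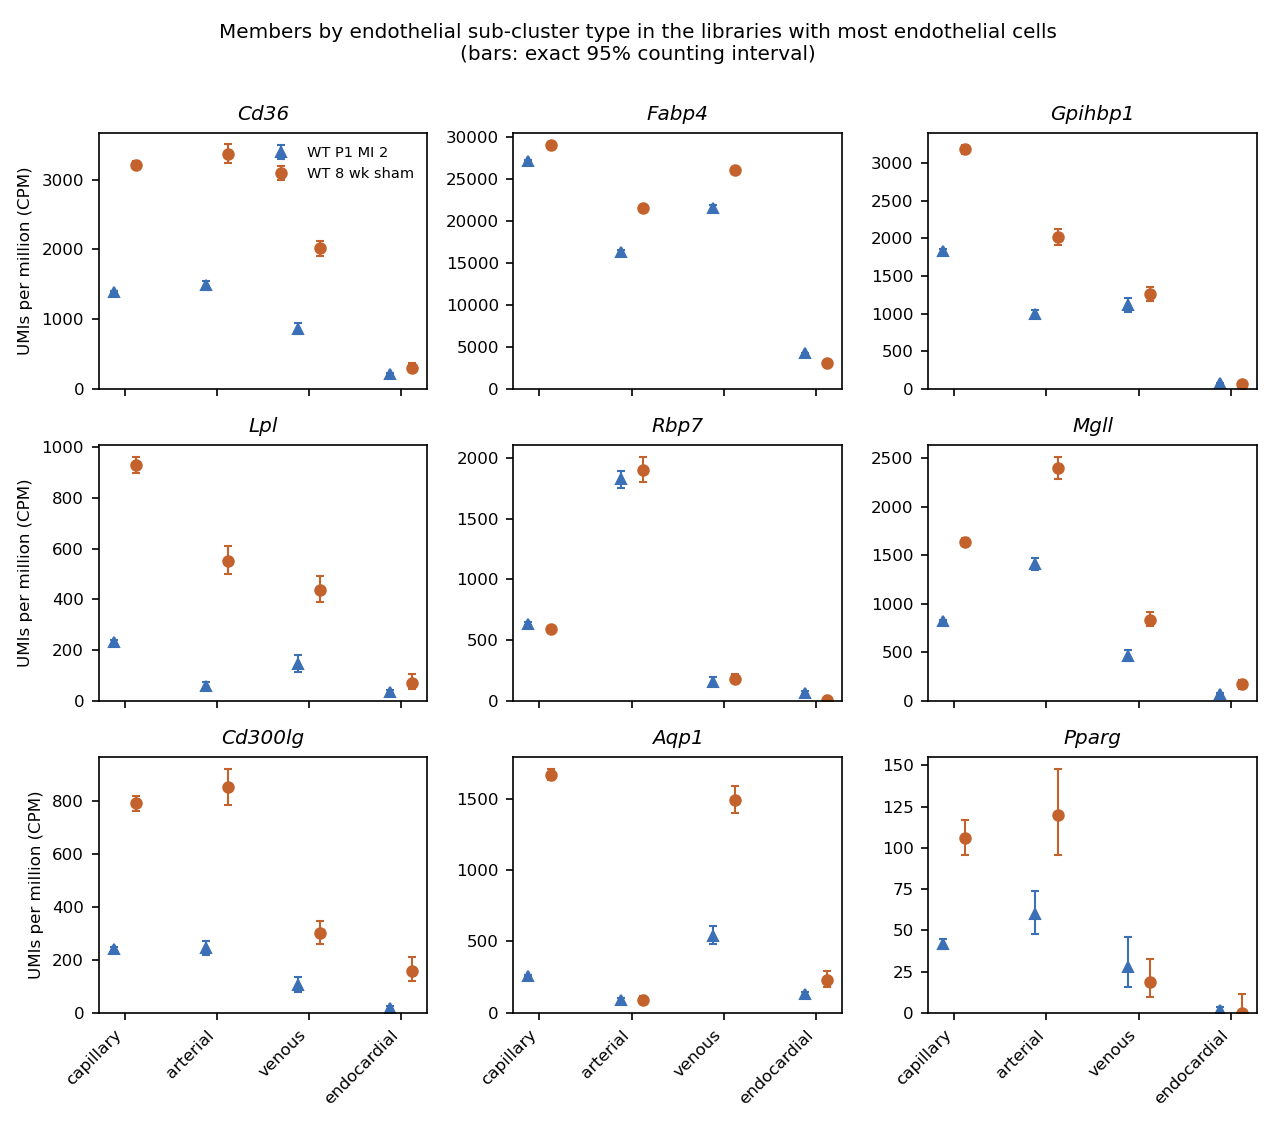
Level of the 9 members in capillary, arterial, venous and endocardial cells of WT P1 MI 2 (triangles) and WT 8 week sham (circles), in CPM on linear axes from 0, with exact 95% counting intervals as bars. Rbp7 and Mgll are highest in arterial cells and Aqp1 is lowest there, at 90.6 and 90.8, while endocardial cells are low for Cd36, Fabp4, Gpihbp1 and Mgll.

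The genes closest to the members over cell classes were general endothelial genes. Over 62 sums of a library and a class, Pearson's r between a gene's log2(CPM + 10) and the mean of the 9 members was highest for Flt1 and Tspan7 (both 0.943), Cyyr1 and Mmp15 (both 0.938), Caskin2 and Ushbp1 (both 0.937), Magix (0.933) and Cdh5, Kctd12b and Myct1 (all 0.932), among 6216 genes. The points share libraries, depth and the contrast of endothelium with all other classes, so this is a description. The members themselves, which enter that mean, ranged from 0.957 for Gpihbp1 down to 0.721 for Pparg and 0.602 for Lpl.

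The tested comparison of age used endothelial sums of all 7 libraries with injury and genotype as further terms (edgeR's quasi-likelihood test). The fit takes these effects to add, whereas the MI by age estimates given below were under 0 for all 9 members. Calls required a Benjamini-Hochberg adjusted p under 0.05 together with a log2 fold change of 1 or more in size. None of the 9 members was called for 8 weeks against P1, against 2.69% of all genes called higher and 2.68% lower. At an unadjusted edgeR p under 0.05 there was 1 member, Aqp1, and 2238 of the 11918 genes. DESeq2 called 0 members. Aqp1 was 0.97 ± 0.38 higher on the log2 scale (SE; adjusted p = 0.168). Estimates were positive for 7 members and negative for Fabp4 (−0.71 ± 0.51) and Mgll (−0.65 ± 0.49). Both, like Cd300lg and Pparg, had their lowest level in WT 8 week MI. The median was 0.37 over the members and −0.05 over all genes, and TMM scaling had moved the median of all genes by 0.233 in this comparison.

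The result depended on WT 8 week MI. Without it, age rested on WT 8 week sham alone, and the edgeR estimates were 1.51 for Aqp1 and 1.26 for Cd300lg. Without WT 8 week sham instead, Cd300lg was at −1.27 and Aqp1 at 0.34, and Lpl, Rbp7 and Pparg were also negative, at −0.39, −0.18 and −2.03. The erythroid and macrophage markers of WT 8 week MI are given above, and their part in its low values was not tested.

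Capillary cells were compared apart, since the share of cells named capillary differed between libraries. They made up 41.6% of the endothelium in WT P1 sham, 72.6% in WT 8 week sham and 38.0% in KO P1 MI. These shares also count cells given no subtype, so they are not a mixture of vessels alone. A sub-cluster without a subtype, led by cardiomyocyte genes, held 91 endothelial cells of WT P1 sham, 4 of WT 8 week sham and 12 of KO P1 MI. WT 8 week MI held 10 capillary cells, too few by the minimum of 30, so a fit to the other 6 libraries was made, a choice taken after the data were seen, in which age rests on WT 8 week sham alone. Different capillary sub-clusters held the ages: sub-clusters 1 and 5, led by Timp4 and by the interferon gene Ifit1, held 765 and 244 cells of WT 8 week sham and 2 cells of the P1 libraries, while sub-clusters 0, 2 and 4, led by Cldn5, by cell-cycle genes and by Aplnr, held most P1 cells. In this fit 5 of the 9 members rose at 8 weeks, against 5.52% of 10622 genes called higher and 5.93% lower.

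Those 5 were Cd300lg (1.61 ± 0.34, adjusted p = 0.000313), Aqp1 (1.57 ± 0.37, adjusted p = 0.00125), Lpl (1.43 ± 0.35, adjusted p = 0.00234), Pparg (1.24 ± 0.33, adjusted p = 0.00522) and Rbp7 (1.09 ± 0.36, adjusted p = 0.0360), log2 fold changes with SE from edgeR's quasi-likelihood test. Cd36 (0.92 ± 0.39, adjusted p = 0.119) and Gpihbp1 (0.83 ± 0.40, adjusted p = 0.188) did not pass, nor did Mgll at 0.58 ± 0.38 and Fabp4 at 0.41 ± 0.51. The member median was 1.09 against 0.01 for all genes. Capillary Lpl, for example, was 304 CPM in WT sham, 307 and 231 in WT MI 1 and 2, 311 in KO sham and 171 in KO MI at P1, and 931 in WT sham at 8 weeks. WT 8 week sham was again alone at the top.

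The calls depended on the P1 libraries, and in each such fit age rested on WT 8 week sham alone. Without WT P1 sham all of them were lost, although the estimates stayed between 0.32 for Fabp4 and 1.72 for Cd300lg. Calls over all genes also fell in that fit. Without KO P1 sham or without KO P1 MI, Pparg and Rbp7 were no longer called, with Pparg at 1.17 and 1.18. Without WT P1 MI 1 Rbp7 was no longer called, as its fold was 0.97, while calls over all genes rose. In WT 8 week sham the 12 stress and dissociation genes summed to 3412 CPM in the endothelium, against 4789 to 9688 in the P1 libraries, and 7 of the 12 fell and 2 rose at 8 weeks in the capillary fit. Their part in the members' values was not tested. The header version of Cell Ranger and age cannot be told apart between the sham libraries. WT P1 MI 2, which shares the version of WT 8 week sham, had 231 CPM of capillary Lpl and 258 of Aqp1 against 931 and 1668. These libraries differ in injury as well as age, and the part of the version was not tested.

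**Figure D5:**
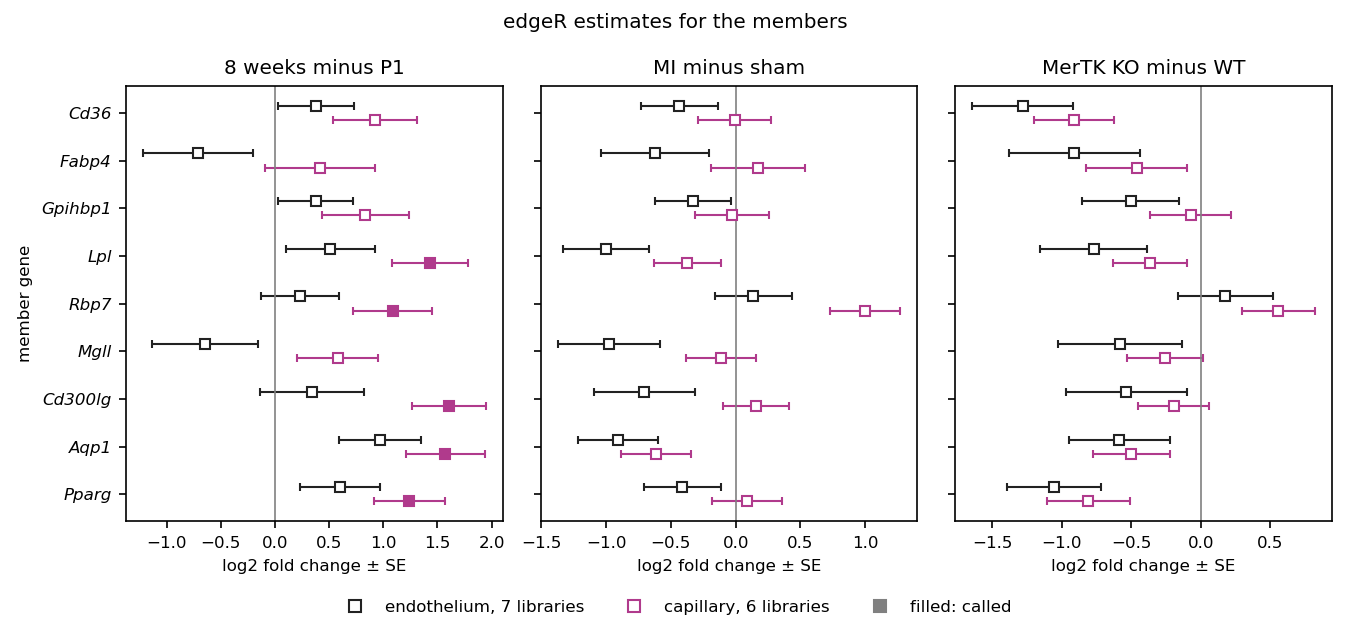
Log2 fold changes with SE for 8 weeks minus P1, MI minus sham and MerTK KO minus WT, per member, from edgeR fits of the whole endothelium in 7 libraries (black) and of capillary cells in 6 libraries (purple). Filled squares were called: they are Lpl, Rbp7, Cd300lg, Aqp1 and Pparg in capillary cells at 8 weeks, and none in the other panels.

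For MI against sham, 0 of the 9 members were called in endothelium by edgeR and 0 by DESeq2, and 0.269% of all genes were called higher and 0.00839% lower. Unadjusted p was under 0.05 for 3 members: Lpl at −1.002 ± 0.333 (adjusted p = 0.430), Mgll at −0.98 ± 0.40 (adjusted p = 0.578) and Aqp1 at −0.91 ± 0.31 (adjusted p = 0.452), all by edgeR. Over all genes it was under 0.05 for 919 of 11918. Estimates were below 0 for 8 members, Rbp7 excepted at 0.14 ± 0.30, and the member median was −0.62 against −0.05 for all genes. These estimates take MI to act alike at both ages and include WT 8 week MI with its 23 endothelial cells. In a fit to the 6 group means, MI against sham within WT P1 was −0.36 for Lpl, −0.29 for Mgll and −0.66 for Aqp1. Fabp4 was at 0.15 there, so its sign changed.

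In capillary cells of 6 libraries the MI estimates centred on 0, with a member median of −0.01 against 0.01 for all genes. No member was called there either, where 0.405% of genes were called higher and 0.113% lower. Unadjusted edgeR p was under 0.05 for 2 members, Rbp7 and Aqp1, and for 842 of 10622 genes. Capillary Rbp7 was 304 CPM in WT sham, 349 and 634 in WT MI 1 and 2, 381 in KO sham and 856 in KO MI at P1, and 591 in WT sham at 8 weeks. Each MI library was above its own sham library, by little in WT P1 MI 1. The edgeR estimate was 1.00 ± 0.27 with an adjusted p of 0.0749, and only the fit without WT P1 MI 1 called it among those run (1.24 ± 0.20, adjusted p = 3.66e-07). It was 0.74 (adjusted p = 1.00) without WT P1 MI 2, 0.74 and 0.75 (adjusted p = 1) without KO P1 sham or KO P1 MI, 1.38 (adjusted p = 0.374) without WT P1 sham and 0.79 (adjusted p = 0.338) at Leiden resolution 2. Of the 12 stress and dissociation genes 3 rose with MI in this fit and 0 fell, and their part was not tested.

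Whether MI acted differently at the ages was tested on the 6 group means, in which the spread comes from the pair of WT P1 MI libraries. Of the members 0 were called (0.94% of all genes in either direction). By edgeR 5 had an unadjusted p under 0.05, as did 1350 of 11918 genes. DESeq2 called 3, Fabp4, Mgll and Cd300lg, and its share over all genes is not given here. The estimate, the MI effect at 8 weeks minus that at P1, was below 0 for all 9. It was −2.54 ± 0.79 for Cd300lg (adjusted p = 0.0875), −2.35 ± 0.80 for Mgll (adjusted p = 0.147) and −2.31 ± 0.95 for Fabp4 (adjusted p = 0.287). Lpl stood at −1.82 ± 0.75 and Pparg at −2.88 ± 1.18, and these values rest on the 23 endothelial cells of WT 8 week MI. In that library 48 cells had a Cdh5 UMI and no Ptprc UMI, 39.6% of them in endothelial clusters, against 79.4% to 89.45% elsewhere. With such cells taken in every library the estimates were −1.27 for Pparg, −1.66 for Lpl, −1.92 for Cd300lg, −2.45 for Mgll and −2.28 for Fabp4. Among the WT 8 week libraries 8 members were lower after MI beyond counting error, a count that was not made over all genes. Ratios ran from 0.141 for Pparg to 0.945 for Rbp7 over all 9, with a median of 0.287, where the median gene was at 0.767. The mixture of vessels differed, with 10 of 23 cells capillary and 9 venous in the MI library against 1306 and 137 of 1799 in sham. Among capillary cells alone Rbp7 was higher after MI, at 2.40 (1.70 to 3.29) of sham, and Cd36 was at 1.02 (0.818 to 1.25), Gpihbp1 at 0.822 (0.643 to 1.04) and Pparg at 0.343 (0.00867 to 1.92), none of these 3 clear of 1. The other 5 members were lower there beyond counting error, from 0.266 for Mgll to 0.586 for Lpl.

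Genotype was compared in the same fits. In endothelium 0 of the 9 members were called for MerTK KO against WT by edgeR, where 1.38% of all genes were called higher and 0.478% lower, and DESeq2 called 1, Cd36. Unadjusted edgeR p was under 0.05 for Cd36 (−1.28 ± 0.36, adjusted p = 0.0850) and Pparg (−1.06 ± 0.34, adjusted p = 0.140), and for 1646 of 11918 genes. All members but Rbp7 (0.18 ± 0.34) had negative estimates, and their median was −0.59 against −0.02 for all genes. The 12 stress and dissociation genes moved the same way, with a median of −0.67 and 1 called lower in endothelium, and a median of −0.92 and 4 called lower in capillary cells, and their part in the genotype values was not tested. DESeq2 gave Cd36 −1.22 ± 0.28 with an adjusted p of 0.00281, and its share of genes called for genotype is not given here. Without a filter on low counts edgeR called Cd36 (−1.31, adjusted p = 0.0357) and Pparg (−1.08, adjusted p = 0.0265) among 565 genes. The main fit called 164 genes higher and 57 lower. Cd36 was also called by edgeR without WT 8 week MI (adjusted p = 0.0244), among 392 genes, and without WT 8 week sham (adjusted p = 0.0294). The gene count of that last fit is not given here. The Cd36 estimate lay between −1.42 and −1.12 in all settings run.

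In capillary cells none of the members was called for genotype, and 0.941% of genes were called higher and 1.5% lower. Capillary Cd36 was 902 CPM in KO P1 sham and 885 in KO P1 MI against 1741 in the P1 sham and 1767 and 1387 in the P1 MI libraries of WT. The KO libraries again lay below all WT P1 libraries, and the edgeR estimate was −0.91 ± 0.29 (adjusted p = 0.0641). Unadjusted edgeR p was under 0.05 for 3 members, Cd36, Pparg (−0.81 ± 0.30) and Rbp7 (0.56 ± 0.26), and for 1552 of 10622 genes. Summed neutrophil markers were at 37.1 CPM in the endothelium of KO P1 sham, where Cd36 was at 796 CPM, and at 4229 in that of KO P1 MI, where Cd36 was at 596, and their part was not tested.

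The MI effect at P1 was also compared between genotypes. By edgeR 0 members were called, 0 had an unadjusted p under 0.05 and all adjusted p were 1, where 0.277% of genes were called, and DESeq2 called 0. Estimates for KO minus WT lay between −0.60 ± 0.66 for Lpl and 0.38 ± 0.60 for Pparg. With standard errors of 0.60 to 0.92, differences of 1 log2 unit were not detectable. Between the KO libraries alone, MI over sham ranged from 0.468 (0.399 to 0.548) for Lpl to 1.10 (1.02 to 1.19) for Rbp7. The member median was 0.749 and the median gene was at 0.881. For 7 members the ratio was below 1 beyond counting error, a count that was not made over all genes.

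Other genes of these pathways were counted in lists drawn up with earlier results of these data known. Of 10 tested genes of lipoprotein lipolysis and receptors, 1 was called higher and 1 lower at 8 weeks in endothelium, and of 13 of fatty acid transport and activation likewise 1 and 1. Acsl5, an acyl-CoA synthetase, rose by 1.19 ± 0.31 (edgeR, adjusted p = 0.0327) from 31.8 to 37.5 CPM in the P1 libraries to 70.1 and 151 in WT 8 week sham and MI. Fabp3, the fatty acid carrier of heart muscle, fell by 3.61 on the log2 scale (SE 0.44, edgeR adjusted p = 0.000177), from 52.3 to 206 CPM at P1 to 16.6 and 12.6. Cardiomyocyte markers moved with Fabp3, at 341 to 1486 CPM in the P1 libraries and 166 and 113 in those of 8 weeks. None of 16 PPAR gamma partners, 18 oxidation genes or 8 retinoid genes was called for age, and 1 of 10 lipid droplet genes was called higher. Of 9 genes of the VEGF-B and apelin axes 1 was higher, Pgf, at 100.5 CPM in WT 8 week MI and 2.94 to 11.6 elsewhere, and 1 lower.

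For MI no gene of these 7 lists was called in endothelium. For genotype, 2 lipoprotein genes and 1 lipid droplet gene were called higher among the genes reported here. The lipid droplet gene was G0s2, an inhibitor of triglyceride lipolysis, at 214 CPM in KO P1 MI and 0 to 25.1 elsewhere; it is also a leading gene of the largest neutrophil cluster.

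In capillary cells at 8 weeks, 2 of 11 fatty acid transport genes rose and 1 fell, Fabp3 again being the one that fell. Cav2, a caveolar coat protein, was one of those that rose, at 622 CPM in WT 8 week sham and 126 to 288 in the P1 libraries (1.48 ± 0.35, edgeR adjusted p = 0.00133). Angptl4, a secreted inhibitor of lipoprotein lipase, was 1 of 2 lipoprotein genes of 7 that fell, at 45.6 CPM against 114.5 to 294 (−1.24 ± 0.37, edgeR adjusted p = 0.0145). Apoe, an apolipoprotein, was the one that rose, at 347.5 CPM against 40.8 to 165. Of 9 lipid droplet genes 1 rose, Plin2 (1.07 ± 0.32, edgeR adjusted p = 0.0140), a droplet coat protein. Among the retinoid genes reported here, Dhrs3 and Rarg rose. Tcf15, 1 called of 14 PPAR gamma partners, and Apln, 1 of 2 called lower of 9 in the VEGF-B and apelin list, served as naming markers of the capillary sub-clusters and are not results.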

How the data were processed

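Per the file headers, the deposited values are raw UMI counts, one matrix of genes by cell barcodes per library, made by the authors with Cell Ranger (4.0.0 for 5 libraries, 6.1.0 for WT P1 MI 2 and WT 8 week sham), on GRCm38 (mm10) per the submitters' processing notes. Antisense and overlapping genes were not separated further. Members and gene lists were chosen with earlier results of these data known. Results for some genes of the lists are not reported here.

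Cells needed 500 UMIs, 300 genes and no more than 15% mitochondrial UMIs. Scrublet scores were computed per library in scanpy 1.11.5, and the highest-scoring cells were removed at 0.8% per 1000 cells (from 5 cells in WT P1 MI 1 to 1876 in WT 8 week sham). Cells were clustered without the 9 members (2000 variable genes, 30 components, 15 neighbours, Leiden resolution 1, leidenalg 0.10.2), with no batch integration. Clusters were named from marker lists; the doublet rule, the rule for mixed lineages and the merging of lymphatic clusters were settled after the data were seen. A shallow Cdh5-positive cluster of 983 cells stayed unnamed, and 2 endothelial sub-clusters (311 cells) led by cardiomyocyte or neutrophil genes were given no subtype. A sub-cluster of 172 cells led by cell-cycle genes was given none either. The cluster of 2729 cells with macrophage and monocyte markers also stayed unnamed.

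Raw counts were summed per library and class and tested with edgeR 4.0.16 in R 4.3.3 (quasi-likelihood test, TMM, filterByExpr), with age, treatment and genotype as additive terms over all 7 libraries, which leaves 3 residual degrees of freedom. Only 1 of these comes from the WT P1 MI pair. The others hold departures from adding, so standard errors and p-values mix these with spread. Interactions used 6 group means (1 residual degree of freedom, which takes the spread of the WT P1 MI pair for every lone library). The capillary comparison could not be run on 7 libraries, so 6 were fitted (2 residual degrees of freedom). Class differences were tested with the library as a block; the MI and genotype terms of that fit were taken up after the data were seen. P-values were adjusted over all genes of a fit by Benjamini-Hochberg, and calls need an adjusted p under 0.05 with a log2 fold of 1 or more in size. CPM is UMIs of a gene per 1000000 UMIs of the class sum; intervals are exact at 95% (Poisson or binomial; scipy 1.17.1). The tests were checked on simulated counts. Named genes are the 9 members, up to 4 called genes per list with the largest change and at least 50 CPM, and the 10 genes most alike. Alternatives were RLE factors, no filter, DESeq2 1.42.0, group means, a gate on Cdh5 and Ptprc (4924 cells), lymphatic cells added, no doublet removal, Leiden resolution 2, leaving out each library, and, after the data were seen, leaving out the 2 mixed sub-clusters or adding the shallow cluster. Gene positions are from GENCODE vM21 on GRCm38.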

Additional observations from a re-analysis of the deposited data

Results flagged for a closer look

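For some members the change with age, injury or genotype differed between endothelium and another cell class by a test of the difference itself (edgeR's quasi-likelihood test, library as a block, Benjamini-Hochberg adjustment, log2 scale ± SE). For age, endothelium minus fibroblast was −2.146 ± 0.446 for Fabp4 (adjusted p = 0.00204), −1.265 ± 0.390 for Cd36 (adjusted p = 0.0440), −2.246 ± 0.507 for Aqp1 (adjusted p = 0.00441) and 1.612 ± 0.242 for Lpl (adjusted p = 5.03e-05), and endothelium minus macrophage was −2.09 ± 0.43 for Fabp4 (adjusted p = 0.0239). For MI, endothelium minus fibroblast was −1.39 ± 0.35 for Fabp4 (adjusted p = 0.0437) and −1.851 ± 0.419 for Aqp1 (adjusted p = 0.0204), where 1.26% of 14251 genes were called. For genotype it was −2.884 ± 0.408 for Fabp4 (adjusted p = 5.26e-05) and −2.204 ± 0.483 for Aqp1 (adjusted p = 0.00830), where 2.46% were called. Against macrophages no member was called for MI or genotype, where 0.0234% and 0.422% of genes were. Unadjusted p was under 0.05 for 2 members (Aqp1 and Lpl) and for 1 (Gpihbp1), and for 588 and 729 of 12811 genes.

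Lpl is the one of these genes with a high level in both classes. Fibroblast Fabp4 was 18.4 CPM in WT sham, 11.4 and 125 in WT MI 1 and 2, 84.3 in KO sham and 169 in KO MI at P1, and 90.5 in WT sham and 54.0 in WT MI at 8 weeks, against 7300 to 25430 in endothelium. In the same order T cells held 33.6, 7.88, 194, 5.59, 30.7, 49.1 and 0 CPM of Fabp4, and macrophages 29.2, 27.2, 130.0, 31.9, 21.9, 237 and 36.8. Fibroblast Aqp1 was 3.79, 4.05, 4.48, 12.4, 8.83, 16.3 and 98.2 CPM, and fibroblast Cd36 0.572 to 11.1 CPM from 6 to 203 UMIs. The part of free RNA in these low levels was not tested. In WT 8 week MI the fibroblast class holds 170 cells and 71 Aqp1 UMIs.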

How the results depend on the processing

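Of 720 values of members under other settings, 659 kept direction and side of the threshold, 14 passed it newly, 10 no longer did and 37 changed sign; the cause was not tested unless fewer genes or samples were used. Genes called for age in endothelium numbered 1155 with no filter and 285 with 6 group means, where 1 member, Mgll, was called lower and Lpl (−0.48), Rbp7 (−0.21), Cd300lg (−1.28) and Pparg (−1.99) turned negative. For MI the count was 230 with no filter, 60 with group means (Fabp4 0.15), 20 by DESeq2, 7 in the gate on Cdh5 and Ptprc, 17 with lymphatic cells, 6 without doublet removal and 16 without the mixed sub-clusters. For genotype it was 565 with no filter (2 members, Cd36 and Pparg), 486 with group means, 14 in the gate, 128 without doublet removal and 101 without the mixed sub-clusters, and DESeq2 called 1 member, Cd36. DESeq2 called 3 members for the MI by age interaction, and the gate 1 member (Mgll) among 416 genes. For MI by genotype DESeq2 called 2 genes and the gate 79, with Cd36 at 0.30, Fabp4 0.13, Gpihbp1 0.0428, Rbp7 0.0314, Mgll 0.0634 and Cd300lg 0.38. At resolution 2, capillary MI estimates were 0.11 for Cd36 and 0.0608 for Gpihbp1, and 158 genes were called for genotype, with Gpihbp1 at 0.16, Mgll 0.00901 and Cd300lg 0.0120. Leaving out 1 library gave 135 to 937 genes for age in endothelium and 0 to 2 members, with ranges of −0.39 to 1.17 for Lpl, −1.27 to 1.26 for Cd300lg, −0.18 to 0.62 for Rbp7, −2.03 to 0.97 for Pparg, −1.84 to 0.34 for Fabp4 and −1.94 to 0.31 for Mgll, the lowest without WT 8 week sham and the highest without WT 8 week MI. It gave 12 to 177 genes for MI (Rbp7 −0.0680 to 0.38, Fabp4 −1.16 to 0.0399) and 22 to 392 genes with 0 to 1 members for genotype (Rbp7 −0.00699 to 0.38). In capillary cells it gave 306 to 1451 genes and 0 to 5 members for age. For capillary MI it gave 26 to 191 genes and 0 to 1 members (Cd36 −0.13 to 0.18, Gpihbp1 −0.15 to 0.0629, Pparg −0.0207 to 0.39), and for genotype 30 to 319 genes (Gpihbp1 −0.17 to 0.0435). Shares of cells moved in 52 of 63 cases without thinning and in 34 when thinned to 1000 UMIs. No paired analysis was possible because only the WT P1 MI libraries carry replicate numbers. Leaving out a WT P1 MI library from the interactions, or WT 8 week sham from the capillary fit, was not run, since no value of spread or age would remain. With 23 endothelial cells, WT 8 week MI limits every comparison it enters, and 3 of the other lone libraries hold under 250 endothelial cells. The shallow unnamed cluster holds 34 further cells of WT 8 week MI.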
